A study of Homo sapiens with 9 samples.

Results

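The 8 genes described here encode the transcription factors that assemble on the promoters of major histocompatibility complex (MHC) class II genes: the coactivator CIITA, the 3 subunits of the RFX complex (RFX5, RFXAP and RFXANK), the 3 subunits of NF-Y (NFYA, NFYB and NFYC) and CREB1. They were chosen by name, as 8 of the 19775 genes that the arrays measured, and each was followed through the probe set with the highest mean over all arrays. Expression was measured in Daudi cells, a human B-cell line derived from Burkitt lymphoma. The study compared 3 groups of 3 arrays each, all from Daudi cells infected with a short hairpin RNA (shRNA) and kept in puromycin for 48 h. Ctrl-sh cells carried a control shRNA, Slc7a5-sh cells a shRNA against SLC7A5, a transporter of large neutral amino acids, and C-Myc-sh cells a shRNA against the transcription factor MYC. C-Myc-sh served as the positive control of the study. The labels call the arrays biological replicates. They name neither the number and sequence of the hairpins nor whether each replicate was a separate infection, so the p-values measure the spread between these arrays, which may be technical.

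MHC class II molecules present peptides from taken-up proteins to CD4+ T cells, and B cells make them constitutively. Their genes share an upstream module in which the X box is bound by the RFX complex, the neighbouring X2 box by CREB family members and the Y box, an inverted CCAAT sequence, by NF-Y. These factors are found in most cells. CIITA does not itself bind DNA but docks on the assembled factors and recruits chromatin-modifying and transcription enzymes, and its presence largely sets whether a cell makes class II molecules. Loss of CIITA, RFX5, RFXAP or RFXANK causes bare lymphocyte syndrome, an immune deficiency without class II molecules.

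To show the shared module, stretches upstream of 5 class II genes are printed here from the RefSeq promoter table of the GRCh38.p14 build, with the stretch of the 1 member that holds an E-box. An E-box, CACGTG, is the sequence preferred by MYC with its partner MAX. HLA-DRB1, HLA-DQA1 and HLA-DPB1 are shown as examples of genes that were lower in Slc7a5-sh cells and higher in C-Myc-sh cells. HLA-DPA1, HLA-DQB1 and CD74 had that pattern too but are not printed, and HLA-DPA1 holds no CCAAT, as described below. HLA-DRA and HLA-DRB4 had the pattern as well, but the promoter table held no stretch for them. HLA-DOA and HLA-DOB are shown because they did not pass the test in C-Myc-sh cells. Each stretch covers the bases from 130 to 21 before the transcription start, 110 bases in all, written 5′ to 3′ on the strand of the gene. The sequences are those of the reference genome, not of Daudi cells. Capitals mark CCAAT or its reverse complement ATTGG in the class II genes and CACGTG in RFX5, for which 1 of its RefSeq starts was taken. The positions are chr6:32589869-32589978 for HLA-DRB1 (minus strand), chr6:32637276-32637385 for HLA-DQA1 (plus strand), chr6:33075860-33075969 for HLA-DPB1 (plus strand), chr6:33009612-33009721 for HLA-DOA (minus strand), chr6:32817023-32817132 for HLA-DOB (minus strand) and chr1:151347020-151347129 for RFX5 (minus strand).
HLA-DRB1: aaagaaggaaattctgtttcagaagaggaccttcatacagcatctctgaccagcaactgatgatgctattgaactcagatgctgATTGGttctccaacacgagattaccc
HLA-DQA1: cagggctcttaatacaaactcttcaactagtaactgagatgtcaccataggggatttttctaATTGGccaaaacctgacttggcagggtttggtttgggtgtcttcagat
HLA-DPB1: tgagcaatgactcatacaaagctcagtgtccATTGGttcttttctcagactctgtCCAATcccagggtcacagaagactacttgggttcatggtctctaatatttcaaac
HLA-DOA: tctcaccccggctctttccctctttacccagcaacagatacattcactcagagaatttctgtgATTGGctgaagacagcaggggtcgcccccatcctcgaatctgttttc
HLA-DOB: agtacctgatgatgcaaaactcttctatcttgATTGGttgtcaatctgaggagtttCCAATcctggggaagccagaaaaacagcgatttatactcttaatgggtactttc
RFX5: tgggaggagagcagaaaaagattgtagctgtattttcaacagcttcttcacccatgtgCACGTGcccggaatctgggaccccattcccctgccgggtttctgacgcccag

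Windows of 300 bases, from 250 before to 50 after each start, were searched on both strands for 4 sets of letters. CCAAT, the core of the Y box, was found in 12 of the 13 class II genes with a window, HLA-DPA1 being the exception, against 39.7% of the 27305 genes in the table. HLA-DOA and HLA-DOB hold it as well as HLA-DQA1, HLA-DRB1 and HLA-DPB1 do. Among the regulators themselves, 6 of 8 had a window, and CCAAT was in the windows of RFX5, NFYA and NFYC, for NFYA 46 bases after the start and not before it. The core of the X2 box, TGCGTCA, was in none of the 13 class II genes and none of the 6 regulators, against 2.96% of all genes. Its shorter part TGACG, which also occurs inside the reverse complement of TGCGTCA, was in 5 of the 13 class II genes and in RFX5, RFXAP and NFYC, against 28.4% of all genes. CACGTG was in RFX5 alone of the 6 regulators and in none of the 13 class II genes, against 8.77% of all genes. A match describes letters only and is not a site of binding. Only exact letters were counted, so the lack of a match to TGCGTCA does not show that an X2 box is absent. HLA-DRA, HLA-DRB3 and HLA-DRB4 had no window and were not searched.

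The signals are log2 values of arrays scaled to a common mean. The array medians lay between 6.05 and 6.26, and replicate arrays had correlations of 0.972 to 0.977 over the 11250 genes tested, which are not independent replicates. SLC7A5 fell by 20.0% in Slc7a5-sh cells (log2 change -0.32, SE 0.07, limma adjusted p = 0.00414), and MYC fell by 53.1% in C-Myc-sh cells (log2 change -1.09, SE 0.05, limma adjusted p = 4.7e-10). Under the other hairpin MYC fell by 21.3% in Slc7a5-sh cells and SLC7A5 fell by 24.6% in C-Myc-sh cells. In C-Myc-sh against Slc7a5-sh cells the log2 difference was -0.08 for SLC7A5 (limma adjusted p = 0.351) and -0.74 for MYC (limma adjusted p = 4.08e-08). The 2 knockdowns were thus not told apart by SLC7A5 signal. All 7 measured B-cell markers were at or above the filter level of 5.77, with mean signals from 9.17 to 13.27. In Slc7a5-sh cells 1 of these 7 rose and 4 fell, where 25.3% of all tested genes passed the limma test. In C-Myc-sh cells 2 of these 7 markers rose and 4 fell, against 54.9% of all tested genes. Their summed signal was 14.79 to 14.84 on the log2 scale on the control arrays, 14.67 to 14.76 on those of Slc7a5-sh and 14.51 to 14.70 on those of C-Myc-sh, and its part in the results below was not tested. Only 1 of 7 T and NK cell markers (CD3E) and 1 of 7 myeloid and dendritic cell markers (CD1C) reached the filter level, and neither passed the limma test in any comparison, at an unadjusted p under 0.05 either. In such bulk samples fewer cells expressing a gene and less RNA per cell cannot be told apart.

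The 8 regulators did not move as one group. Against Ctrl-sh, 3 of 8 passed the test in Slc7a5-sh cells (RFX5 higher, RFXANK and NFYB lower), where 25.3% of all tested genes passed. In C-Myc-sh cells 7 of 8 passed, all but NFYC, against 54.9% of all tested genes. CIITA, RFX5, RFXANK, NFYA and CREB1 were higher there, and RFXAP and NFYB lower. In the direct comparison of C-Myc-sh with Slc7a5-sh, 6 of 8 passed, against 49.5% of all tested genes, with CIITA, RFXANK and CREB1 higher and RFXAP, NFYB and NFYC lower. By direction, 14.3% of genes were higher and 11.0% lower in Slc7a5-sh cells, 28.7% and 26.2% in C-Myc-sh cells, and 24.4% and 25.1% in the direct comparison. Of the called genes 52.3% were higher in C-Myc-sh than in Ctrl-sh cells, which became 40.7% when each array was centred on its median, and in the direct comparison 49.3% became 36.8%. Members whose arrays did not overlap between the groups were the same in number as those that passed: 1 higher and 2 lower in Slc7a5-sh cells (21.8% and 18.0% of all tested genes), 5 higher and 2 lower in C-Myc-sh cells (33.2% and 29.1%), and 3 higher and 3 lower in the direct comparison (28.8% and 27.7%). A gene was called where its Benjamini-Hochberg adjusted p in limma was under 0.05. The median change of the 8 members was -0.04, 0.23 and 0.07 on the log2 scale in the 3 comparisons, beside 0.03, 0.04 and 0.03 over all tested genes. Their median absolute change was 0.15, 0.39 and 0.43, beside 0.23, 0.44 and 0.38 over all tested genes. The comparisons with Ctrl-sh share the same 3 control arrays, so their values are given side by side and the difference between the knockdowns is taken from the direct comparison.

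**Figure D1:**
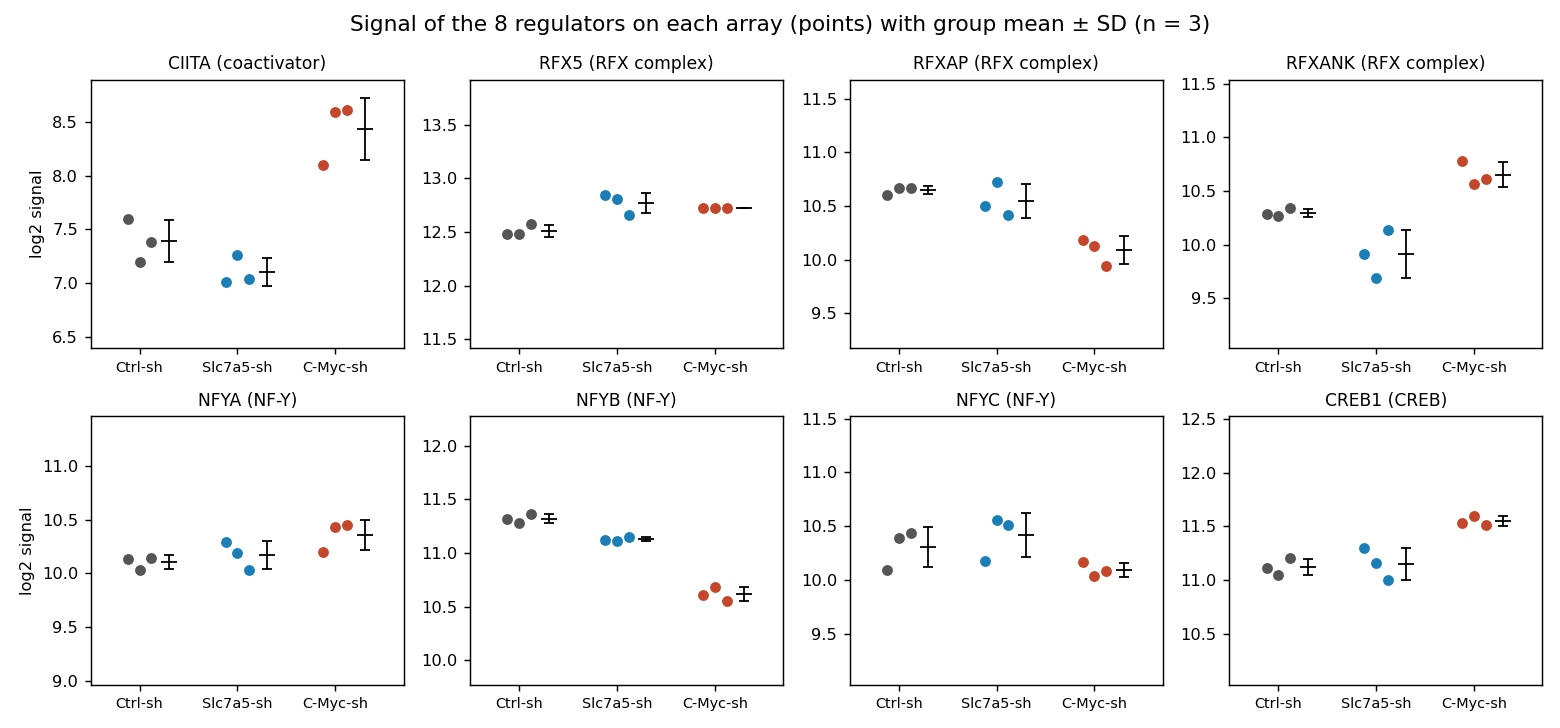
Signal of each of the 8 regulators (log2 scale, vertical axis) on each of the 9 arrays (points), by group, with the group mean ± SD (n = 3). The 3 C-Myc-sh arrays of CIITA, between 8.10 and 8.61, lie above all other CIITA arrays, while those of NFYB, between 10.55 and 10.69, lie below all other NFYB arrays.

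CIITA, the coactivator on which class II expression depends, had the largest change of the 8 in both comparisons with C-Myc-sh cells. Its signal on the Ctrl-sh arrays was 7.59, 7.19 and 7.39. On the Slc7a5-sh arrays it was 7.01, 7.26 and 7.04, and on the C-Myc-sh arrays 8.10, 8.60 and 8.61. All 3 C-Myc-sh arrays lay above the other 6, and the Slc7a5-sh arrays overlapped with Ctrl-sh. The group means were 7.39 ± 0.20, 7.10 ± 0.13 and 8.44 ± 0.29 (SD, n = 3 each). CIITA was 2.07-fold higher in C-Myc-sh than in Ctrl-sh cells (log2 change 1.05, SE 0.23, 95% interval 0.55 to 1.55, limma adjusted p = 0.00143). The change in Slc7a5-sh cells was -0.29 (SE 0.23, interval -0.79 to 0.21, limma adjusted p = 0.408), so that a fall of up to 0.79 or a rise of up to 0.21 is within its error. Between the knockdowns CIITA was 2.52-fold higher in C-Myc-sh cells (log2 difference 1.34, SE 0.23, limma adjusted p = 0.000227).

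The other probe sets of CIITA gave no call. The second, with a mean of 6.02, gave 0.48 in Slc7a5-sh cells (limma adjusted p = 0.57 in a fit over all probe sets at or above the filter level) and 0.66 in C-Myc-sh cells (limma adjusted p = 0.31), with overlapping arrays. The third lay below the filter level and was not tested, with means of 5.90 ± 1.14 for the control, 4.91 ± 0.96 for Slc7a5-sh and 5.54 ± 0.27 for C-Myc-sh (SD, n = 3 each). When all 3 probe sets were averaged, the CIITA change in C-Myc-sh cells was 0.45 (limma adjusted p = 0.287). The rise of CIITA therefore rests on 1 probe set. CIITA has several promoters that start different first exons, and which of them was in use was not analysed here.

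RFX5 is the DNA-binding subunit of the RFX complex. Its signal was 12.48, 12.48 and 12.58 on the Ctrl-sh arrays, 12.84, 12.81 and 12.66 on the Slc7a5-sh arrays and 12.72 on each of the 3 C-Myc-sh arrays. All arrays of both knockdowns lay above the 3 controls, and the knockdowns overlapped with each other. RFX5 was higher by 0.26 in Slc7a5-sh cells (SE 0.06, interval 0.13 to 0.38, 1.20-fold, limma adjusted p = 0.00473). In C-Myc-sh cells it was higher by 0.21 (SE 0.06, 1.16-fold, limma adjusted p = 0.0064), a call that was lost when each array was centred on its median (0.08, limma adjusted p = 0.378). Its difference between the knockdowns was -0.05 (interval -0.17 to 0.08, limma adjusted p = 0.54). The other RFX5 probe set gave rises of 0.59 and 0.42 (limma adjusted p = 0.000128 and 0.000335). Both RFX5 probe sets thus rose in both knockdowns.

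RFXAP, the RFX-associated protein that joins RFX5 in the complex, fell in C-Myc-sh cells. The Ctrl-sh arrays gave 10.61, 10.67 and 10.67, the Slc7a5-sh arrays 10.50, 10.73 and 10.41, and the C-Myc-sh arrays 10.19, 10.13 and 9.94. The C-Myc-sh arrays lay below all others, and the Slc7a5-sh arrays overlapped with Ctrl-sh. RFXAP fell by 0.56 on the log2 scale in C-Myc-sh cells (SE 0.10, to 0.678 of the control, limma adjusted p = 0.000154), and was lower than in Slc7a5-sh cells (log2 difference -0.46, SE 0.10, limma adjusted p = 0.00102). In Slc7a5-sh cells the change was -0.10 (interval -0.31 to 0.10, limma adjusted p = 0.487). The other RFXAP probe set fell in C-Myc-sh cells as well (-0.70, limma adjusted p = 0.00761).

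RFXANK, the ankyrin-repeat subunit of the RFX complex, which binds CIITA, moved in opposite directions in the knockdowns. Its 1 probe set, of a type (ending in _s_at or _x_at) that can also bind related transcripts, read 10.28, 10.26 and 10.34 on the Ctrl-sh arrays. The Slc7a5-sh arrays gave 9.91, 9.69 and 10.13, all below the controls, and the C-Myc-sh arrays 10.78, 10.57 and 10.61, all above them. RFXANK fell by 0.38 on the log2 scale in Slc7a5-sh cells (SE 0.11, to 0.766 of the control, limma adjusted p = 0.0165) and rose by 0.36 in C-Myc-sh cells (SE 0.11, 1.28-fold, limma adjusted p = 0.0107). Between the knockdowns it was 1.67-fold higher in C-Myc-sh cells (log2 difference 0.74, SE 0.11, limma adjusted p = 3.97e-05). The fall was not called without Slc7a5-sh replicate 2 (-0.27, limma adjusted p = 0.0698) or Ctrl-sh replicate 3 (-0.36, limma adjusted p = 0.0572), or with eBayes run without a trend (limma adjusted p = 0.0555). The rise was not called without C-Myc-sh replicate 1 (0.29, limma adjusted p = 0.0558) or after median centring (0.23, limma adjusted p = 0.127). The difference between the knockdowns passed in all 19 settings that gave a value. In C-Myc-sh cells the 3 subunits of one complex thus split, with RFX5 and RFXANK higher and RFXAP lower.

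**Figure D2:**
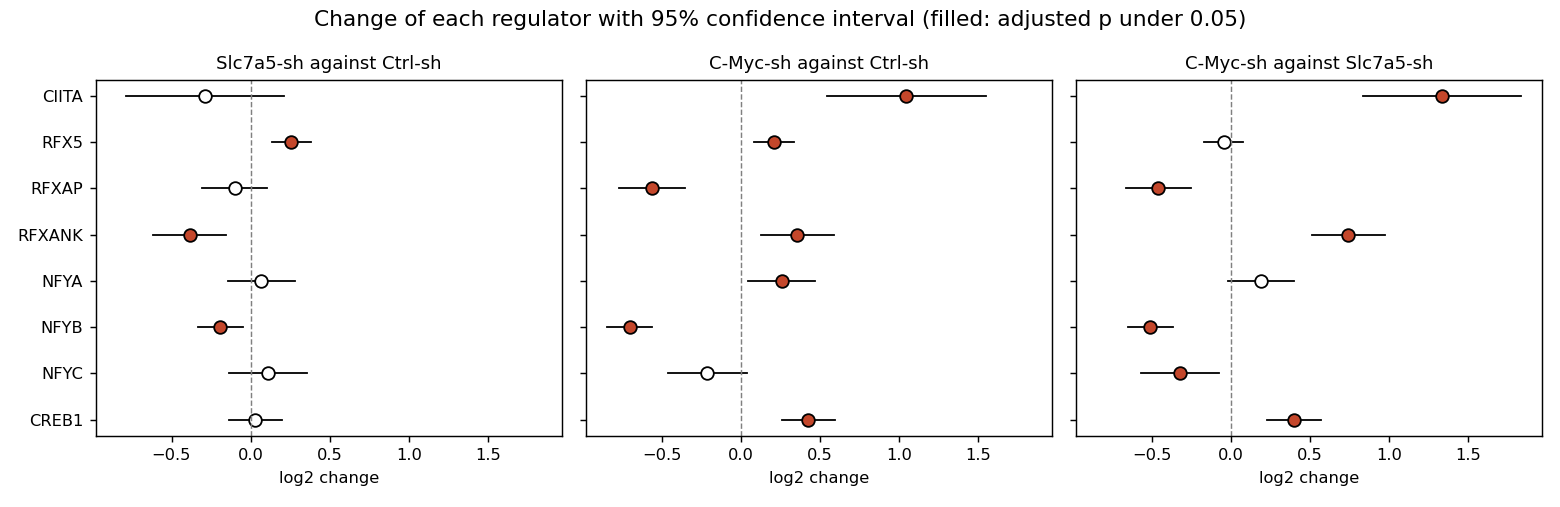
Log2 change of each regulator with its 95% interval (horizontal axis) in the 3 comparisons, filled where the limma adjusted p was under 0.05. CIITA has the largest change in C-Myc-sh against Ctrl-sh, 1.05, and NFYB the lowest, -0.70.

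NF-Y binds CCAAT boxes as a trimer, with NFYA giving sequence recognition and NFYB and NFYC forming a histone-like dimer. NFYB read 11.32, 11.28 and 11.37 on the Ctrl-sh arrays, 11.12, 11.12 and 11.15 on the Slc7a5-sh arrays, and 10.61, 10.69 and 10.55 on the C-Myc-sh arrays. The 3 groups did not overlap. NFYB fell by 0.70 on the log2 scale in C-Myc-sh cells (SE 0.07, interval -0.84 to -0.56, to 0.615 of the control, limma adjusted p = 3.96e-07), and was lower there than in Slc7a5-sh cells (log2 difference -0.51, SE 0.07, limma adjusted p = 1.48e-05). With averaged probe sets the latter call was lost (-0.22, limma adjusted p = 0.0638), and with the second-highest probe set the former (-0.19, limma adjusted p = 0.0635). In Slc7a5-sh cells its change was -0.19 (SE 0.07, limma adjusted p = 0.0464), a call kept in 5 of the 20 settings tried. Tested alone, its 4 probe sets ran from -0.62 to 0.14 there. Of these, 1 was called lower (-0.48, limma adjusted p = 0.00357) and 0 higher. Over its 4 probe sets the change in C-Myc-sh cells ranged from -0.70 to -0.19, and 2 of the 4 were called, both lower.

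NFYA read 10.14, 10.03 and 10.14 on the Ctrl-sh arrays, 10.29, 10.19 and 10.03 on the Slc7a5-sh arrays, and 10.20, 10.43 and 10.45 on the C-Myc-sh arrays. The C-Myc-sh arrays lay just above the controls and overlapped with Slc7a5-sh. NFYA rose by 0.26 in C-Myc-sh cells (SE 0.10, interval 0.05 to 0.47, limma adjusted p = 0.0372), a call kept in 8 of 20 settings. It was lost after leaving out any 1 of the 3 Ctrl-sh arrays (0.22 to 0.28) or C-Myc-sh replicate 2 or 3 (0.23 and 0.21). Another of its 5 tested probe sets fell (-0.56, limma adjusted p = 0.00453), so the direction for NFYA depended on the probe set. In Slc7a5-sh cells the change was 0.07 (interval -0.14 to 0.28, limma adjusted p = 0.662). Between the knockdowns the difference was 0.19 (interval -0.02 to 0.40, limma adjusted p = 0.126).

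NFYC read 10.09, 10.39 and 10.43 on the Ctrl-sh arrays, 10.18, 10.56 and 10.51 on the Slc7a5-sh arrays, and 10.16, 10.04 and 10.09 on the C-Myc-sh arrays. Ctrl-sh replicate 1 lay with the C-Myc-sh arrays, so those groups overlapped. The change was 0.11 in Slc7a5-sh cells (SE 0.12, limma adjusted p = 0.531) and -0.21 in C-Myc-sh cells (SE 0.12, interval -0.46 to 0.04, limma adjusted p = 0.139). The latter was called lower in 3 of 20 settings: quantile normalization, median centring and without Ctrl-sh replicate 1. Without that array it was -0.32 (limma adjusted p = 0.0349). Its direction turned, without a call, with averaged probe sets and without _s_at and _x_at probe sets. Tested alone, 2 of its 6 probe sets were called lower in C-Myc-sh than in Ctrl-sh cells and 0 higher. NFYC was lower in C-Myc-sh than in Slc7a5-sh cells (log2 difference -0.32, SE 0.12, limma adjusted p = 0.0313), a call lost after leaving out Slc7a5-sh replicate 2 (-0.25) or 3 (-0.27) or C-Myc-sh replicate 2 (-0.29) or 3 (-0.32). Of its 6 probe sets 4 were called lower in that comparison, from -0.32 to -0.60, and 1 was called higher (1.16, limma adjusted p = 0.0398).

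CREB1, a leucine-zipper factor that binds cAMP-response elements and the X2 box, read 11.11, 11.05 and 11.20 on the Ctrl-sh arrays, 11.29, 11.16 and 11.00 on the Slc7a5-sh arrays, and 11.53, 11.60 and 11.52 on the C-Myc-sh arrays. All 3 C-Myc-sh arrays lay above the other 6. CREB1 rose by 0.43 in C-Myc-sh cells (SE 0.08, interval 0.26 to 0.60, 1.35-fold, limma adjusted p = 0.000286), and was higher than in Slc7a5-sh cells by 0.40 (SE 0.08, limma adjusted p = 0.000621). In Slc7a5-sh cells the change was 0.03 (interval -0.14 to 0.20, limma adjusted p = 0.825). That value depended on the probe set: tested alone, the 7 ran from -0.31 to 0.21 there, with 0 called. The one at 0.21 was almost as bright, with all its arrays above the controls (limma adjusted p = 0.0562). Without _s_at and _x_at probe sets CREB1 was called higher in Slc7a5-sh cells (limma adjusted p = 0.0437). Over its 7 probe sets the change in C-Myc-sh cells ranged from -0.18 to 0.57, and 3 were called, all higher.

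**Figure D3:**
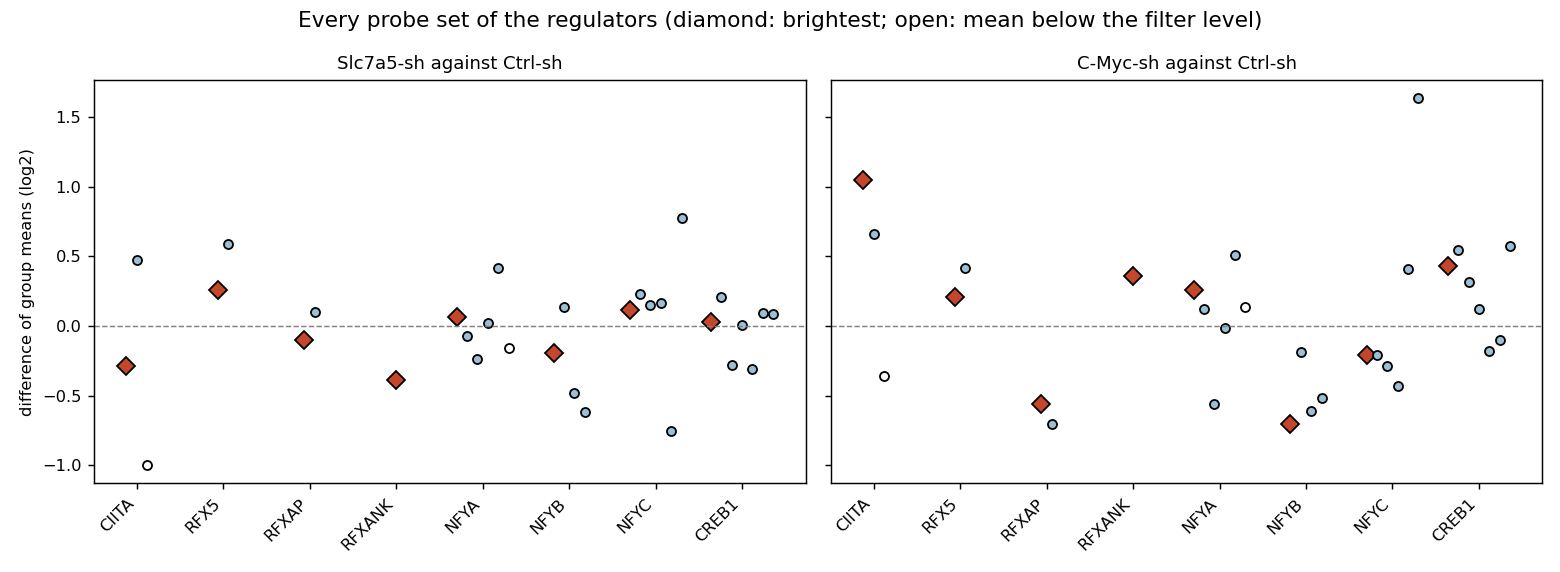
Difference of group means (log2 scale, vertical axis) of every probe set of the 8 regulators in Slc7a5-sh and C-Myc-sh against Ctrl-sh. Diamonds are the probe sets used for the genes, circles the others, open where the mean is below the filter level. In C-Myc-sh cells the 4 probe sets of NFYB run from -0.70 to -0.19, while those of NFYC span -0.43 to 1.63. The 1.63 is from a probe set near the filter level (mean 6.24), with overlapping arrays and no call (limma adjusted p = 0.0661).

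The class II genes, on whose promoters these factors meet, moved in opposite directions in the knockdowns. In Slc7a5-sh cells 9 of the 12 tested genes fell and 0 rose (limma, with the same counts at an unadjusted p under 0.05), with a median change of -0.44 and a range of -0.97 to -0.15. In C-Myc-sh cells 10 of 12 rose and 0 fell, again with the same counts unadjusted, with a median of 1.06 and a range of -0.12 to 2.69. In the direct comparison 11 of 12 were higher in C-Myc-sh cells (12 at an unadjusted p under 0.05), with a median of 1.52. Of all tested genes, 11.0% fell in Slc7a5-sh cells, 28.7% rose in C-Myc-sh cells and 24.4% were higher in the direct comparison. The median over all tested genes was 0.03, 0.04 and 0.03. When the probe sets of each gene were averaged, 4 genes fell in Slc7a5-sh cells and 8 rose in C-Myc-sh cells. HLA-DRB3, HLA-DRB5 and HLA-DQA2 had no usable probe set, and HLA-DQB2 was below the filter level. The highly similar HLA-DRB genes can bind each other's probes, so HLA-DRB1 and HLA-DRB4 are not separate evidence.

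HLA-DQA1, which encodes the alpha chain of HLA-DQ, had the largest rise. It read 9.91, 9.62 and 9.87 on the Ctrl-sh arrays, 9.46, 9.25 and 9.42 on the Slc7a5-sh arrays, and 12.46, 12.56 and 12.44 on the C-Myc-sh arrays. The 3 groups did not overlap. HLA-DQA1 was 6.44-fold higher in C-Myc-sh than in Ctrl-sh cells (log2 change 2.69, SE 0.09, limma adjusted p = 1.36e-11) and lower in Slc7a5-sh cells (-0.43, SE 0.09, limma adjusted p = 0.00402), a fall not called with averaged probe sets (-0.65, limma adjusted p = 0.227). HLA-DQB1, its partner chain, changed by -0.69 and 1.42, and HLA-DRB1, the beta chain of HLA-DR, by -0.46 and 1.38, in Slc7a5-sh and C-Myc-sh cells, all called. The fall of HLA-DQB1 was not called with averaged probe sets (-0.52, limma adjusted p = 0.139) or without _s_at and _x_at probe sets (-0.38, limma adjusted p = 0.245). In Slc7a5-sh cells the falls of HLA-DRA (-0.97, limma adjusted p = 1.1e-07) and HLA-DPB1 (-0.72, limma adjusted p = 2.81e-05) were called in all 20 settings. That of CD74 (-0.66, limma adjusted p = 4.31e-06) was called in 18 of 20. In C-Myc-sh cells HLA-DRA, HLA-DPB1 and CD74 rose by 1.00, 1.11 and 0.44, called in 20, 18 and 18 of 20 settings. HLA-DMA and HLA-DMB, which encode the 2 chains of the peptide exchange factor, rose only in C-Myc-sh cells by this test (0.86 and 1.14), with -0.15 and -0.29 in Slc7a5-sh cells (limma adjusted p = 0.394 and 0.241). In the direct comparison they were higher in C-Myc-sh cells by 1.01 and 1.42 (limma adjusted p = 5.47e-06 and 5.97e-06).

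HLA-DOA and HLA-DOB, the chains of the B-cell inhibitor of that exchange factor, were the 2 tested class II genes that did not pass in C-Myc-sh cells. HLA-DOB read 9.33, 9.30 and 8.91 on the Ctrl-sh arrays, 8.50, 8.73 and 8.27 on the Slc7a5-sh arrays, and 9.14, 9.001 and 9.04 on the C-Myc-sh arrays. Its C-Myc-sh arrays lay within the range of Ctrl-sh, and its Slc7a5-sh arrays below both. The change was -0.12 in C-Myc-sh cells (SE 0.16, limma adjusted p = 0.557) and -0.68 in Slc7a5-sh cells (limma adjusted p = 0.00577). The fall was lost, and its direction turned, with the second-highest probe set and without _s_at and _x_at probe sets (0.0962 in both), and it was lost with averaged probe sets (-0.29, limma adjusted p = 0.44). HLA-DOA changed by 0.07 in C-Myc-sh cells (SE 0.19, limma adjusted p = 0.78) and by -0.40 in Slc7a5-sh cells (limma adjusted p = 0.151), the latter called without Ctrl-sh replicate 3 (-0.58, limma adjusted p = 0.0478) or Slc7a5-sh replicate 1 (-0.58, limma adjusted p = 0.0484). The stretches printed above for these genes carry the same CCAAT letters as those of HLA-DQA1 and HLA-DPB1.

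**Figure D4:**
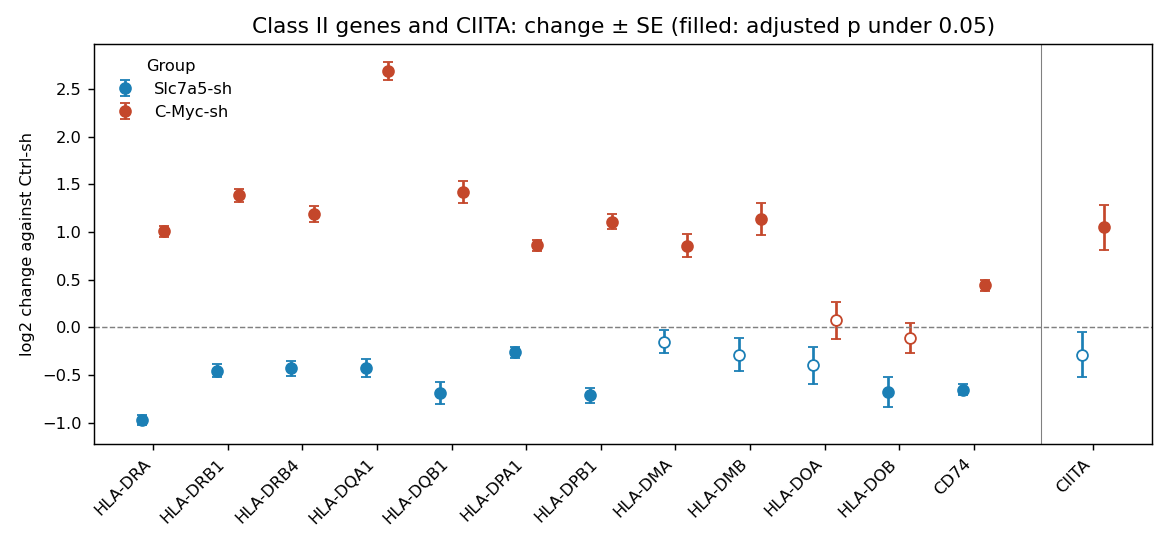
Log2 change ± SE of each of the 12 tested class II genes and CIITA against Ctrl-sh in Slc7a5-sh and C-Myc-sh cells, filled where the limma adjusted p was under 0.05. The Slc7a5-sh values of the class II genes run from -0.97 to -0.15, and the C-Myc-sh values reach 2.69 for HLA-DQA1, with HLA-DOA at 0.07 and HLA-DOB at -0.12.

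Factors that act on transcription of CIITA itself moved in mixed directions. Of 8 tested, 1 rose and 1 fell in Slc7a5-sh cells, 4 rose and 2 fell in C-Myc-sh cells, and 2 were higher and 1 lower in the direct comparison. Their median change was 0.05, 0.42 and 0.24. Of all tested genes, 25.3%, 54.9% and 49.5% passed in the 3 comparisons, in either direction. PAX5, the factor that maintains B-cell identity, read 13.79, 13.39 and 13.70 on the Ctrl-sh arrays, 13.09, 13.02 and 12.84 on the Slc7a5-sh arrays, and 14.24, 14.40 and 14.10 on the C-Myc-sh arrays. The 3 groups did not overlap. PAX5 fell by 0.64 on the log2 scale in Slc7a5-sh cells (SE 0.10, limma adjusted p = 0.000313) and rose by 0.62 in C-Myc-sh cells (SE 0.10, limma adjusted p = 7.68e-05), and its difference between the knockdowns was 1.26 (limma adjusted p = 7.9e-08). All 3 calls were lost with its second-highest probe set.

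IRF1, an interferon-induced activator, rose in both knockdowns, by 0.78 in Slc7a5-sh cells (SE 0.13, limma adjusted p = 0.000746) and by 1.10 in C-Myc-sh cells (SE 0.13, limma adjusted p = 5.49e-06). IRF4, a factor of activated B cells and plasma cells, rose in C-Myc-sh cells from a mean of 5.95 to 7.79 (log2 change 1.84, SE 0.51, limma adjusted p = 0.00682). TCF3, the E protein of early B-cell development, fell by 1.54 on the log2 scale in C-Myc-sh cells (SE 0.21, limma adjusted p = 1.73e-05). Without probe sets that can bind related transcripts that fall was -0.12 and was not called. PRDM1, the repressor of CIITA in plasma cells, lay below the filter level, with means of 5.63 ± 0.87 in Ctrl-sh cells, 5.56 ± 0.93 in the SLC7A5 knockdown and 5.72 ± 0.54 in the MYC knockdown (SD, n = 3 each).

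Cofactors that CIITA recruits or that oppose it were about evenly split. Of 12 tested, 4 rose and 5 fell in Slc7a5-sh cells, and 5 rose and 5 fell in C-Myc-sh cells. In the direct comparison 4 were higher and 3 lower, and the medians were -0.09, 0.03 and 0.23. Of all tested genes, 25.3%, 54.9% and 49.5% passed in these comparisons, in either direction. KAT2B, a histone acetyltransferase, rose by 0.39 in Slc7a5-sh cells (SE 0.11, limma adjusted p = 0.0154, and 0.053 without Slc7a5-sh replicate 1) and by 0.91 in C-Myc-sh cells (SE 0.11, limma adjusted p = 4e-06). CARM1, an arginine methyltransferase, was lower in both (-0.50 and -0.55, all 19 settings). HDAC2, a histone deacetylase, fell by 0.61 on the log2 scale in C-Myc-sh cells (SE 0.05, limma adjusted p = 4.83e-08). HDAC1, a related deacetylase, fell in Slc7a5-sh cells (-0.37, SE 0.05, limma adjusted p = 0.000156) and changed by -0.05 in C-Myc-sh cells (limma adjusted p = 0.408, but 0.18 and called higher after quantile normalization, limma adjusted p = 0.00844). Its difference between the knockdowns was 0.32 (limma adjusted p = 0.00013). SMARCA4, the ATPase of the BAF remodelling complex, was lower in Slc7a5-sh and C-Myc-sh cells (log2 change -0.49 and -1.07), but the changes were 0.20 and 0.13 without probe sets that can bind related transcripts.

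Among 7 tested relatives of the members, 2 rose and 0 fell in Slc7a5-sh cells (limma, 3 and 1 at an unadjusted p under 0.05). In C-Myc-sh cells 3 rose and 1 fell, and in the direct comparison 2 were higher and 1 lower. The shares of all tested genes that passed in these comparisons were 25.3%, 54.9% and 49.5%. ANKRA2, the closest relative of RFXANK, rose by 1.81 in C-Myc-sh cells (SE 0.13, limma adjusted p = 2.63e-08), with 0.30 in Slc7a5-sh cells (limma adjusted p = 0.121). Its arrays read 9.38, 9.59 and 9.65 for the control, 10.01, 9.90 and 9.59 for Slc7a5-sh, and 11.22, 11.20 and 11.63 for C-Myc-sh, with the C-Myc-sh arrays above all others. NLRC5, the counterpart of CIITA at MHC class I promoters, rose by 0.76 in C-Myc-sh cells (SE 0.14, limma adjusted p = 0.000298) and was higher there than in Slc7a5-sh cells by 0.57 (limma adjusted p = 0.00335). Its change in Slc7a5-sh cells was 0.19 (limma adjusted p = 0.359). RFX7 rose in Slc7a5-sh cells (0.35, SE 0.06, limma adjusted p = 0.00123, and 0.208 with its second-highest probe set), with -0.06 in C-Myc-sh cells.

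Many MHC class I genes carry a similar upstream module, which was not searched for here. All 6 class I genes tested rose in C-Myc-sh cells, with a median of 1.49 and a range of 0.37 for B2M to 2.38 for HLA-E. All 6 were also higher there than in Slc7a5-sh cells, B2M by 0.18 (limma adjusted p = 0.0191, a call kept in 14 of 20 settings). Of all tested genes, 28.7% rose in C-Myc-sh cells and 24.4% were higher there than in Slc7a5-sh cells. In Slc7a5-sh cells 2 of 6 rose and 0 fell (limma, 3 and 0 at an unadjusted p under 0.05), with a median of 0.16. There 14.3% of all tested genes rose. HLA-E rose there by 0.28 (limma adjusted p = 0.00718, and 0.0989 with its second-highest probe set) and B2M by 0.19 (limma adjusted p = 0.0286, a call kept in 9 of 20 settings). So in Slc7a5-sh cells the tested class II genes had values from -0.97 to -0.15 and the class I genes from 0.08 to 0.28. The class I genes are similar enough to bind each other's probes. The rise of HLA-F became -0.29 without probe sets that can bind related transcripts.

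The genes whose profile was closest to each regulator were found as the smallest root mean square difference, over the 9 arrays, of log2 values centred on the Ctrl-sh mean. For CIITA they were GRHPR (0.15), GLRX (0.16), ARHGAP17 (0.17), SAMSN1 (0.18) and CERS4 (0.18). For NFYB they were UBL3 (0.04), LRBA, MRPS27, CDK1 and LRRC59 (0.05 each), and for RFXANK FOCAD (0.09), MYL12B (0.11), ALAS1 (0.11), NOL4L (0.12) and DHTKD1 (0.12). The nearest to RFX5 was STARD3NL (0.05), to RFXAP OGFRL1 (0.09), to NFYA SEC22B (0.06), to NFYC TTN (0.07) and to CREB1 WDR55 (0.06). None of these genes is a class II gene. The measure compares the size of changes as well as their direction, and only the nearest genes were kept. A class II gene that moved the same way but further could thus be left out. The absence of class II genes here therefore does not show that they moved differently from the regulators. The 8 regulators were left out of the search, so none of them could appear.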

How the data were processed

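Total RNA of the 9 samples was amplified and biotin-labelled with a 3' IVT kit for short-oligonucleotide arrays, per the labels' protocols. The authors deposited log2 values, 1 signal per probe set and array, made with MAS5 per the submitters' processing notes, with no version given. The base of the logarithm was inferred from the data, whose linear mean with 2% trimmed at each end was 497 on every array, so signals are relative and say nothing of total RNA per cell.

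The 8 members and the gene lists were chosen with earlier results of these data known. Groups were taken from the sample titles. Of 54613 probe sets, 41091 had exactly 1 symbol in the platform annotation, 1801 several and 11721 none, and only the first were used. The probe set with the highest mean stood for a gene, and 11250 of 19775 genes whose mean reached the median over probe sets (5.77) were tested. All 8 members passed this filter. One fit over all 9 arrays with 3 group means was made in R 4.3.3 with limma 3.58.1 (lmFit, eBayes with trend, 6 residual and 8.21 prior degrees of freedom), two-sided, with p-values adjusted by Benjamini-Hochberg within each comparison. The script was tested on simulated data. Each probe set of a member was also tested alone, in a fit over 27307 probe sets, an alternative chosen after seeing the data. Beside the members, the text draws on a rule for naming genes. It takes per list and comparison the 4 with the smallest p, and per member the 5 nearest in profile. Only some of these are printed. CCNT1, CDK9, RFX3 and IRF2, for example, met the rule, but their values are not given. HLA-DQB1, HLA-DRB4, HLA-DMA, HLA-DMB, HLA-DOA, HLA-DOB, CARM1 and PRDM1 fall outside that rule and were named after their values were seen. The alternatives were quantile normalization, median centring, 2 other filters, a floor, 3 other choices of probe set, no trend, a replicate block, a fit of only the 6 arrays compared, and leaving out each array. Promoter windows came from RefSeq (GRCh38.p14) and were matched by symbol. Their coordinates are those of that table, and the arrays' own annotation names no build. No coordinates of probes are given. The number of arrays limits the precision.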

Additional observations from a re-analysis of the deposited data

How the results depend on the processing

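The calls of RFX5 in Slc7a5-sh cells, RFXAP and CREB1 in C-Myc-sh cells against both other groups, and RFXANK between the knockdowns passed under every alternative fixed for them that gave a value. Where a count or direction changed, the cause was not tested. Of the 8 members, 2 were lower in Slc7a5-sh cells; this became 1 with quantile normalization, median centring, no filter, the second-highest probe set or only the 6 arrays compared. It became 0 without eBayes trend or without probe sets ending in _s_at or _x_at (limma, 2 and 1 at an unadjusted p under 0.05), and 0 to 2 with 1 array left out. The members higher there went from 1 to 2 without _s_at and _x_at probe sets, with CREB1 beside RFX5, and were 1 with any array left out. In C-Myc-sh cells the 5 higher members became 2 with median centring and 3 with averaged probe sets or the second-highest one. The 2 lower became 1 with the second-highest, and 3 with quantile normalization or median centring. Leaving out 1 array gave 4 to 5 higher and 2 to 3 lower. In the direct comparison the 3 lower members became 1 with the mean of all probe sets, and leaving out 1 array gave 3 to 4 higher and 2 to 3 lower. Median centring moved the median of all genes in C-Myc-sh cells from 0.04 to -0.08. Over all genes in Slc7a5-sh cells, 1605 were higher and 1238 lower; the mean of all probe sets gave 795 and 786, over fewer genes, and the second-highest gave 950 higher. Leaving out 1 array gave 1313 to 1574 higher and 922 to 1237 lower in Slc7a5-sh, 2943 to 3296 and 2695 to 3000 in C-Myc-sh, and 2401 to 2731 and 2598 to 2793 in the direct comparison. Directions turned for small changes and with other probe sets. In Slc7a5-sh cells CREB1 became -0.0237 (mean of all probe sets), -0.0066 (without Ctrl-sh replicate 2), -0.0431 (without Slc7a5-sh replicate 1), and -0.28 and -0.31 on single probe sets. There the second-highest probe set, also when tested alone, gave 0.48 for CIITA, 0.10 for RFXAP, -0.0749 for NFYA and 0.14 for NFYB, another NFYA probe set gave -0.24, and NFYC was -0.75 without _s_at and _x_at probe sets and on that probe set alone. In C-Myc-sh cells NFYC became 0.15 (mean of all probe sets), 0.41 (without _s_at and _x_at probe sets, and that probe set alone) and 1.63 (another probe set), NFYA -0.56 and -0.0127 and CREB1 -0.18 and -0.10 on single probe sets. In the direct comparison RFX5 became 0.0938 with quantile normalization, NFYC 0.0368 (mean of all probe sets), 1.16 (without _s_at and _x_at probe sets, limma adjusted p = 0.0348) and 0.86 (another probe set), NFYA -0.32 and -0.031, NFYB 0.10 and CREB1 -0.19 on single probe sets. Replicate numbers did not pair the arrays: deviations from the group means correlated at -0.02 to 0.02 over 9 same-numbered pairs, and 2 of 9 arrays correlated best with their own number. With the replicate block 1 member was lower in Slc7a5-sh cells and 4 were higher in C-Myc-sh cells, and 2775, 6147 and 5526 genes were called in place of 2843, 6178 and 5569.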
